A study of Homo sapiens with 22 samples.

Results

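The receptor tyrosine kinases other than the PDGF and EPH receptors were followed across renal cancer cell lines. They were chosen by gene symbol, with no measured value in the rule, though earlier results of these data were known. They make up 36 of the 25343 genes listed in each deposited table. The series profiles enhancers in metastatic cancer, and its RNA part holds 22 libraries in 7 groups. The line 786-O, which stems from a VHL-deficient clear cell tumour of the kidney, gave 2 libraries. Its metastatic derivative, called M1A here because its label has M1A where that of 786-O has the O, gave 2 more. OS-LM1, another metastatic kidney cancer line that does not stem from 786-O, also gave 2. These relations between the lines come from earlier work, since the labels call each of them only a renal cancer line. The other 16 libraries were made from M1A cells with CRISPR interference (CRISPRi), which directs a repressor fused to an inactive Cas9 to the site matched by a guide RNA. They comprise 6 libraries with a non-targeting guide (SC), 4 with iMAE-1.1, 4 with iMAE-1.2 and 2 with iMAE-126, and the labels do not name the target of any iMAE guide. All groups were grown in RPMI medium with serum. Each line is a single culture model, so a difference between lines is a difference between those lines and not between classes of tumour.

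A receptor tyrosine kinase spans the cell membrane, binds a ligand outside the cell and adds phosphate to tyrosines of its own tail. Adaptor proteins dock there and pass the signal to the RAS and PI3K pathways, while ubiquitin ligases, phosphatases and proteases end it. In clear cell renal carcinoma, the loss of VHL leaves hypoxia-inducible factors active, and drugs that block VEGF receptors, MET or AXL are in clinical use.

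The libraries held from 9062605 to 52706490 expected counts, and levels are given as TPM, which scales by gene length and library and allows levels of different genes to be set side by side. No source used here says that replicates of a group are separate cultures. The tests therefore weigh differences against the spread of these libraries only, which may be technical, and 2 to 6 libraries a group limit their precision. The 16 CRISPRi libraries fell into 2 sets by the mean length of the genes their reads came from. Set A, with both iMAE-126 libraries and SC replicates 1 and 2, had means of 3528 to 3716 bases, and set B, with the other 12, had 3264 to 3395 bases. The unmodified lines ranged from 3391 to 3982 bases, with OS-LM1 at 3617 and 3391. Of 8 renal markers, 6 reached a mean of 1 TPM in every group, among them PAX8 (87.1 to 262 TPM) and KRT8 (494 to 839 TPM), while CA9 (0 to 33.1 TPM) and NDUFA4L2 (0 to 166 TPM) reached it in OS-LM1 only. Of 7 endothelial markers 1 or 2 did so, with EGFL7 up to 37.9 TPM, a summed level of 2.51 to 40 TPM, and CDH5 and VWF at 0.04 TPM or less. Of 8 blood markers only LYZ did (3.22 to 14.7 TPM), with CD3E at 0 in all libraries. Of 5 fibroblast markers 1 to 3 did, with COL1A1 at 1.03 to 6.81 TPM and PDGFRA at 0.01 TPM or less, and of 5 nerve markers only SNAP25 (2.63 to 9.83 TPM). The part of other cell types in the results was not tested. In bulk RNA, fewer cells with a transcript and less of it per cell cannot be told apart.

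Of the 36 receptors, 22 reached a mean of 1 TPM in at least one group (61.1%, against 60.2% of all listed genes), and 14 reached 10 TPM. MET is the receptor of hepatocyte growth factor, AXL binds GAS6, and EGFR is the receptor of epidermal growth factor. These receptors made up the largest share of the sum in 786-O, in M1A, in OS-LM1 replicate 1 and in the set A libraries. In iMAE-126 replicate 1 EGFR (39.88 TPM) lay just above FGFR4 (39.78 TPM). Together they held 63.4% and 63.8% of the summed receptor TPM in the 786-O libraries, 77.3% and 77.5% in M1A, 59.9% and 50.3% in OS-LM1 and 48.8% to 65.3% in the CRISPRi libraries. AXL or MET was the most abundant receptor in every library. In OS-LM1 replicate 2 EGFR (30.33 TPM) lay below FGFR1 (62.46 TPM), RYK (51.63 TPM) and DDR1 (41.45 TPM). In the 12 set B libraries EGFR was at 10.5 to 15.2 TPM, below RYK (30.6 to 37.8 TPM) and FGFR4 (20.4 to 31.3 TPM) in each. The summed TPM of all 36 was 1105 and 1077 in 786-O, 1166 and 1209 in M1A, and 871 and 619 in OS-LM1. In SC it was 601 and 638 in set A, but only 285 to 303 in set B.

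**Figure D1:**
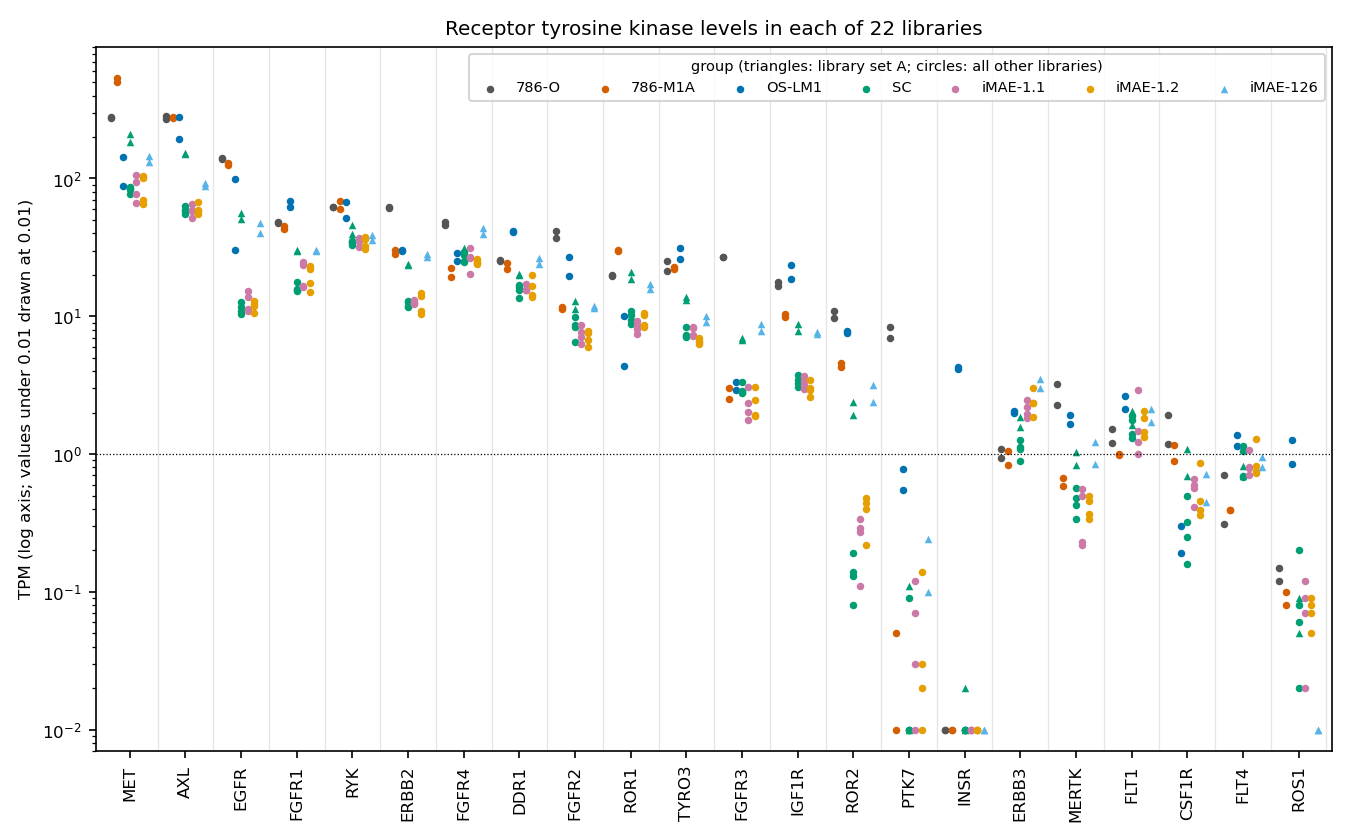
TPM (log axis) of the 22 receptors whose mean reached 1 TPM in a group, ordered by their highest group mean, with 1 point per library and the 7 groups side by side. MET and AXL lie highest, EGFR lies next to them in 786-O and M1A but lower in the circles of the CRISPRi groups, INSR lies above 1 TPM only in OS-LM1, and most receptors lie higher in the SC triangles (set A) than in the SC circles (set B).

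The remaining 14 receptors stayed under 1 TPM in every group mean, and none exceeded 0.91 TPM in a library. They are ERBB4, MST1R, KDR, FLT3, KIT, DDR2, RET, NTRK2, NTRK3, ALK, LTK, TEK, TIE1 and MUSK. KDR, the main VEGF receptor of blood vessels, lay between 0.05 and 0.48 TPM. FLT3, a receptor of blood progenitors, had a count of 0 in all 22 libraries, which allows up to 3 counts in each. KIT, the stem cell factor receptor, had 7 and 11 counts in 786-O and at most 1 in any other library. RET, which binds GDNF family ligands through a co-receptor, never exceeded 0.05 TPM.

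The deposited gene lengths, weighted by the authors over each gene's transcripts, depend on which annotated forms the reads were assigned to. For FLT1, a VEGF receptor, the weighted length was 2968 to 3061 bases in all 22 libraries. Of the 4 FLT1 transcripts listed in the files, GENCODE v29 gives lengths of 1911, 2969, 6453 and 7092 bases. The longest codes for the membrane receptor, and FLT1 is also known to make soluble forms that lack the kinase. The weighted length thus lay nearest to that of the 2969-base form, and the share of each form was not computed. ERBB3, the neuregulin receptor of the EGFR family, had weighted lengths of 1105 to 1748 bases, between its short form of 1027 bases and its full form of 5919 bases. These lengths lay nearest to the short form, so the ERBB3 levels given here may not stand for the full form. ERBB3 counts were few, from 11 to 68 per library, so its TPM of 0.83 to 3.49 rests on few reads divided by a short length. The length of ROR1, a WNT5A receptor, was 4814 to 4867 bases in the 786-O and M1A libraries and 5674 and 5805 bases in OS-LM1, with a full form of 5832 bases and a short form of 2305 bases. No test was run on these lengths. GENCODE v29 lengths can also differ widely from those of the annotation the authors used, as for TYRO3 (8207 bases against a deposited 3971).

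The first comparison asks how the metastatic derivative differs from its parent. A gene was called at an edgeR adjusted p under 0.05, adjusted over all genes tested. In M1A, MET was higher than in 786-O, and 9 receptors were lower: ERBB2, MERTK, FGFR2, FGFR3, FGFR4, IGF1R, ROR2, PTK7 and NTRK3. These were 10 of the 24 receptors with enough counts for the test (41.7%), where 31.0% of all 16354 genes tested were called, 14.7% higher and 16.3% lower. The median log2 fold change of the 24 was −0.43, against −0.02 for all genes.

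MET stood at 281 and 276 TPM in 786-O and at 498 and 534 TPM in M1A. Both M1A libraries lay above both parent libraries, with a log2 fold change of 0.97 ± 0.19 (SE, adjusted p = 0.00685). The call was lost without 786-O replicate 1 (adjusted p = 0.0616), 786-O replicate 2 (0.0702) or M1A replicate 2 (0.0501), where the single library left is taken to vary as the other lines do. MST1R, its relative that binds macrophage-stimulating protein, had at most 6 counts in any of these 4 libraries.

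In the EGFR family only ERBB2, the partner receptor that has no ligand of its own, was called. It was at 61.4 and 62.0 TPM in 786-O and at 30.2 and 28.2 TPM in M1A, a fall of 1.01 ± 0.10 on the log2 scale (adjusted p = 0.000158). EGFR was at 141 and 138 TPM in the parent and at 125.8 and 130 TPM in the derivative. EGFR was not called (log2 fold change −0.05 ± 0.48), and its wide error is shared with the OS-LM1 libraries, which differ from each other in EGFR. ERBB3 did not pass either (−0.17 ± 0.34).

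Of the TAM receptors, which clear dying cells and bind GAS6 and PROS1, only MERTK was called. MERTK fell from 2.27 and 3.23 TPM to 0.67 and 0.59 TPM (log2 fold change −2.04 ± 0.25, adjusted p = 0.000659). AXL was at 284 and 270 TPM in 786-O and at 277 and 274 TPM in M1A, so the groups overlapped. TYRO3 also overlapped, at 25.0 and 21.4 TPM against 22.8 and 22.03 TPM.

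The FGF receptors fell in 3 of 4 members. FGFR3 had the widest gap of the family, with 26.9 and 26.9 TPM in 786-O and 3.0 and 2.5 TPM in M1A (log2 fold change −3.21 ± 0.13, adjusted p = 2.87e-06). FGFR2 went from 36.7 and 41.6 TPM to 11.4 and 11.7 TPM (−1.73 ± 0.16, adjusted p = 0.000133). FGFR4 went from 48.7 and 45.9 TPM to 22.3 and 19.2 TPM (−1.103 ± 0.12, adjusted p = 0.000305). In each of these receptors both derivative libraries lay below both parent libraries. FGFR1 did so in TPM, but not in counts scaled to library size (CPM). There M1A was at 116.7 to 120.3 and 786-O at 116.8 to 119.6, which overlap. FGFR1 was at 48.3 and 47.8 TPM against 43.2 and 45.6 TPM and did not pass the test (−0.04 ± 0.10), so the difference between FGFR1 and its relatives lies in these values and was not tested as such.

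Among the WNT-linked receptors, PTK7, a planar polarity receptor whose kinase domain is inactive, was nearly absent from M1A. It had 8.31 and 6.96 TPM in 786-O, from 598 and 525 counts, and 0.05 and 0 TPM in M1A, from 4 and 0 counts. The log2 fold change of −8.23 ± 0.46 (adjusted p = 1.08e-05) rests on those 4 counts on the lower side. ROR2, a WNT5A receptor, stood at 10.8 and 9.70 TPM against 4.58 and 4.28 TPM (−1.14 ± 0.12, adjusted p = 0.000270). ROR1 was at 19.7 and 19.9 TPM in the parent and at 29.8 and 30.4 TPM in the derivative, where both libraries lay higher, but at a log2 fold change of 0.67 ± 0.27 it missed the threshold (adjusted p = 0.101). In a fit of these 4 libraries alone, and with an offset for gene length, ROR1 and KDR were also called higher. RYK, another WNT receptor, was at 62.0 and 61.9 TPM against 60.5 and 68.2 TPM, and these overlapped.

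IGF1R, the receptor of insulin-like growth factors, was at 17.7 and 16.5 TPM in 786-O and 9.91 and 10.3 TPM in M1A (log2 fold change −0.68 ± 0.13, adjusted p = 0.00480). The call was lost without 786-O replicate 1 (adjusted p = 0.0670) or M1A replicate 1 (0.0646). NTRK3, the receptor of neurotrophin-3, fell from 0.91 and 0.83 TPM to 0.16 and 0.09 TPM (−2.75 ± 0.54, adjusted p = 0.00624), a call lost without M1A replicate 2 (0.0510). KIT had 18 counts in 786-O and 0 in M1A, at least 6.7-fold lower when the group's 0 is replaced by 3 counts. DDR1, a collagen receptor, was at 25.5 and 25.2 TPM against 22.1 and 24.5 TPM and did not pass (−0.08 ± 0.09). CSF1R, the receptor of colony-stimulating factor 1, did not pass either, at 1.91 and 1.18 TPM against 1.17 and 0.89 TPM.

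**Figure D2:**
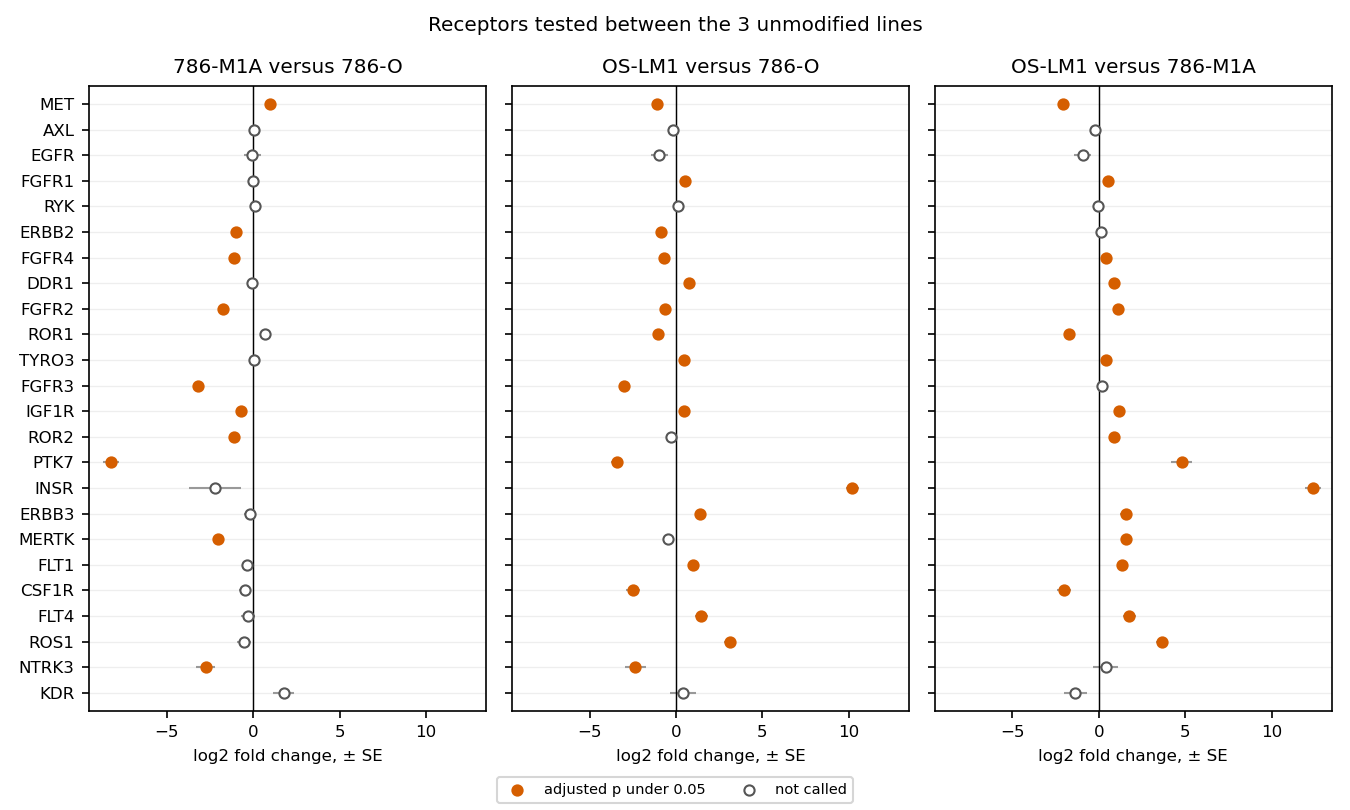
Log2 fold changes of the 24 tested receptors in the 3 comparisons between unmodified lines, with bars of 1 SE, filled where the edgeR adjusted p is under 0.05. MET is the only filled point to the right of 0 in M1A versus 786-O, PTK7 lies farthest left there at −8.23, and INSR lies farthest right in both OS-LM1 panels.

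The bases before the start site are printed for the WNT-linked receptors and the FGF receptor that fell most, PTK7, ROR2 and FGFR3, and for INSR, which differs most in OS-LM1. They are the 250 bases before the most upstream start in RefSeq, on GRCh38.p14, and PTK7 lies on chr6:43076064-43076313 (plus strand), ROR2 on chr9:91950229-91950478 (minus), FGFR3 on chr4:1793043-1793292 (plus) and INSR on chr19:7294415-7294664 (minus). Capitals mark the GC box GGGCGG, the motif of SP factors, on either strand.
PTK7: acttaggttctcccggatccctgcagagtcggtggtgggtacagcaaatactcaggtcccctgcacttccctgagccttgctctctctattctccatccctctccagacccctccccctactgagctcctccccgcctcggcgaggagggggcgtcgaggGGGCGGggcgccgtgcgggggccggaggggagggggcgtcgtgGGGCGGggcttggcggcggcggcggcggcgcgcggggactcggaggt
ROR2: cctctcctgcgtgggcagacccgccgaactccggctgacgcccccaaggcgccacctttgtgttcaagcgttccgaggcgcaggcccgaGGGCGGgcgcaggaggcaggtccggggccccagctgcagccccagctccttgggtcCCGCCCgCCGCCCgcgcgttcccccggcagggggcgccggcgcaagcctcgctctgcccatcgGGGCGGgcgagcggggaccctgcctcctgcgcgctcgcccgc
FGFR3: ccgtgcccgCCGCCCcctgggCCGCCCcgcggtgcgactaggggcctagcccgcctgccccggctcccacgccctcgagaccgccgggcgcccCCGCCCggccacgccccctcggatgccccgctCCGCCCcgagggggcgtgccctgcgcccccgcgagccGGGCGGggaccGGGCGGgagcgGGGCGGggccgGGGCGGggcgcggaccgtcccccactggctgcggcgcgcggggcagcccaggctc
INSR: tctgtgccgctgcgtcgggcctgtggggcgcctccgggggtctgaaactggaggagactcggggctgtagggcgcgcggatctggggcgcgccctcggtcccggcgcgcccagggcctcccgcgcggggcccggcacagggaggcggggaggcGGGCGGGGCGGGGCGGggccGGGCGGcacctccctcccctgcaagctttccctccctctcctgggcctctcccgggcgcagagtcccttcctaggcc

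These windows are rich in CG pairs, with 24 in PTK7, 32 in ROR2, 40 in FGFR3 and 28 in INSR. The median was 24 over the 33 receptors with an entry and 10 over all 27303 promoters. PTK7 held 2 GC boxes, ROR2 4, FGFR3 8 and INSR 4, which overlap in part and form 2 runs. At least 1 GC box was present in 23 of the 33 receptor windows (69.7%) and in 42.2% of all promoters. The core of the hypoxia response element, ACGTG or GCGTG on either strand, occurred in 19 of the 33 (57.6%) and in 43.1% of all promoters. FGFR3 had 3 such cores, ROR2 1, and PTK7 and INSR none, and no GC box overlapped a core. A match is a description of letters, and no binding or methylation was measured here.

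The other genes of the pathway moved both ways between M1A and 786-O. Of 39 tested ligands, 8 rose and 9 fell. PGF, which binds FLT1, rose from a mean of 1.52 TPM to 15.4 TPM (log2 fold change 3.40), and ARTN, a RET ligand, rose from 8.97 to 31.4 TPM (1.90). PROS1, a ligand of the TAM receptors, fell from 28.7 to 5.11 TPM (−2.41). Of 17 co-receptors and decoys, 5 rose and 4 fell, with GFRA2, which presents neurturin to RET, at 6.12 TPM against 0.20 TPM and the syndecan SDC2 at 11.3 TPM against 81.8 TPM. CD44, a hyaluronan receptor that also holds growth factors, rose from 183 to 517 TPM (1.58). Of 32 adaptors, 3 rose and 5 fell. GRB7 (−2.24), GAB1, the docking protein of MET (−2.08), and PIK3R3 (−0.98) fell, and DOK7, an activator of MUSK, rose (1.29). Of 28 brakes and sheddases, 7 rose and 2 fell, and LRIG1, which promotes the breakdown of EGFR, rose from 1.99 to 8.84 TPM (2.22). Of 3 other receptor tyrosine kinases tested, STYK1 rose (1.35). Of all genes tested, 14.7% were called higher and 16.3% lower in M1A.

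OS-LM1 was compared with 786-O and with M1A to place the receptors in a metastatic line of another origin. These comparisons share the OS-LM1 libraries, and the first shares the 786-O libraries with the comparison above. Against 786-O, 18 of 24 receptors were called (75%), 9 higher and 9 lower, where 63.6% of all genes were called, 30.4% higher and 33.3% lower. Against M1A, 17 of 24 were called (70.8%), 14 higher and 3 lower, where 68.7% of all genes were called, 34.4% higher and 34.3% lower. The share of receptors called was thus close to that background. OS-LM1 differed from the other lines by gene length too, with median log2 fold changes against 786-O from 0.46 in the shortest class of genes to −0.38 in the longest. With an offset for gene length, added after seeing the data, FGFR1 stood at 0.79 and IGF1R at 0.755 against 786-O. On TPM with limma, 7 receptors were higher and 11 lower than in 786-O.

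INSR, the insulin receptor, separated OS-LM1 from all other groups. It was at 4.17 and 4.29 TPM in OS-LM1, from 820 counts, and had 1 count in 786-O and none in M1A. The ratio to 786-O was 1540, with a 95% counting interval of 276 to 61000, and OS-LM1 was at least 574-fold higher than M1A with 3 counts put in place of that 0. No CRISPRi library exceeded 0.02 TPM, and these intervals cover counting error only. IGF1R was at 23.6 and 18.6 TPM in OS-LM1, above M1A (log2 fold change 1.15 ± 0.13, adjusted p = 0.000103). Against 786-O the IGF1R difference of 0.47 ± 0.13 passed the test (adjusted p = 0.0121), but not without 786-O replicate 1 (0.0604) or 786-O replicate 2 (0.118), or with limma on log2(TPM + 1) (0.105).

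ROS1, a receptor of which fusions drive some lung cancers, reached 1.26 and 0.84 TPM in OS-LM1, with 120 and 53 counts. It lay between 0.08 and 0.15 TPM in 786-O and M1A, and the log2 fold changes were 3.13 ± 0.34 and 3.65 ± 0.35. FLT1 was at 2.65 and 2.13 TPM, against 1.21 and 1.51 TPM in 786-O and 1.00 and 0.99 TPM in M1A. FLT1 was called against 786-O (0.99 ± 0.25, adjusted p = 0.00820), though not without 786-O replicate 1 (0.0713), and against M1A (1.36 ± 0.25). FLT4, the VEGF receptor of lymph vessels, was at 1.14 and 1.37 TPM, above 786-O (1.47 ± 0.38), a call lost without 786-O replicate 1 (0.0520), and above M1A (1.77 ± 0.39).

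The epithelial collagen receptor DDR1 was at 40.7 and 41.4 TPM in OS-LM1, above all other libraries of the unmodified lines, with log2 fold changes of 0.78 ± 0.09 against 786-O and 0.86 ± 0.09 against M1A. ERBB3 was at 2.05 and 1.98 TPM, with log2 fold changes of 1.41 ± 0.33 and 1.58 ± 0.33. FGFR1 was at 68.4 and 62.5 TPM, with 0.52 ± 0.10 and 0.55 ± 0.10. AXL was at 280 and 194 TPM and RYK at 67.8 and 51.6 TPM in OS-LM1, and neither was called against either line. TYRO3 was at 31.5 and 25.9 TPM, and its differences of 0.47 ± 0.13 and 0.45 ± 0.13 were small. The TYRO3 call against 786-O was lost without 786-O replicate 2 (0.137), and that against M1A without M1A replicate 1 (0.0711) or M1A replicate 2 (0.108). With limma on log2(TPM + 1) neither TYRO3 call was made (0.0868 and 0.0563).

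MET was lower in OS-LM1 than in both other lines, at 142 and 87.8 TPM. The log2 fold change was −1.11 ± 0.20 against 786-O (adjusted p = 0.00139) and −2.08 ± 0.20 against M1A (4.65e-05). FGFR3 was at 2.91 and 3.36 TPM in OS-LM1, lower than in 786-O (−2.99 ± 0.14) but overlapping M1A, against which it did not pass the test (0.21 ± 0.14). FGFR2, at 26.8 and 19.7 TPM, and FGFR4, at 25.1 and 28.9 TPM, lay between the other lines. FGFR2 was lower than in 786-O (−0.64 ± 0.15, lost without 786-O replicate 2 at 0.0584) and higher than in M1A (1.09 ± 0.16). FGFR4 was lower than in 786-O (−0.68 ± 0.12) and higher than in M1A (0.42 ± 0.12, lost without M1A replicate 2 at 0.150).

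ERBB2 was at 30.4 and 29.6 TPM in OS-LM1, below 786-O (log2 fold change −0.87 ± 0.10) and overlapping M1A. PTK7 was at 0.55 and 0.78 TPM, with 29 and 27 counts, well below 786-O (−3.42 ± 0.32) and above M1A (4.80 ± 0.61), where it had 4 counts in all. Without M1A replicate 1, which holds those 4 counts, the fitted PTK7 value rose to 8.45. ROR2 was at 7.76 and 7.58 TPM, above M1A (0.88 ± 0.12) and not called against 786-O (−0.26 ± 0.12), though limma on TPM called it lower. CSF1R was at 0.30 and 0.19 TPM, lower than in 786-O (−2.47 ± 0.40) and in M1A (−1.98 ± 0.41). MERTK, at 1.93 and 1.66 TPM, was higher than in M1A (1.59 ± 0.27) and not called against 786-O (−0.45 ± 0.24). NTRK3, at 0.26 and 0.04 TPM, was lower than in 786-O (−2.35 ± 0.59), and without OS-LM1 replicate 1 its value was −4.37.

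The OS-LM1 libraries differed from each other in several receptors. EGFR was at 98.9 TPM in replicate 1 and 30.3 TPM in replicate 2, both below the 786-O and M1A libraries, and it did not pass the test against either line (adjusted p = 0.123 and 0.134). It was called lower than in both lines without OS-LM1 replicate 1 and also without OS-LM1 replicate 2, and lower than in 786-O by limma on TPM. AXL was called lower than in both lines without OS-LM1 replicate 1, and RYK lower than in M1A without OS-LM1 replicate 1 and higher than in 786-O without OS-LM1 replicate 2. ROR1 was at 10.1 and 4.34 TPM, below both other lines, with log2 fold changes of −1.04 ± 0.29 and −1.71 ± 0.29. Against 786-O the ROR1 value was −1.77 without OS-LM1 replicate 1 and −0.60 without OS-LM1 replicate 2, and the call was lost without 786-O replicate 1 (0.0533), 786-O replicate 2 (0.0512) or the filter on low counts (0.101). The IGF1R value against 786-O was 0.28, and that of TYRO3 against M1A was 0.29, without OS-LM1 replicate 1. The FGFR2 value against 786-O was −0.42 without OS-LM1 replicate 2. Replicate 2 had the shorter mean gene length and 15612816 counts, replicate 1 held 25800964 counts, and the part of these in the differences was not tested.

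Of 39 ligands, 18 were higher and 11 lower in OS-LM1 than in 786-O, and 17 higher and 12 lower than in M1A, where 63.6% and 68.7% of all genes were called. The EGFR ligand EREG was at a mean of 0.65 TPM in OS-LM1, 57.9 TPM in 786-O and 35.5 TPM in M1A. NTF3, the ligand of NTRK3, was at 12.5 TPM and listed at 0 in both other lines. MDK, a proposed ligand of ALK, was at 142 TPM against 2.21 and 3.46 TPM. GAS6 was at 2.50 TPM against 83.9 TPM in M1A (log2 fold change −5.08). Of 17 co-receptors and decoys, 5 were higher and 6 lower than in 786-O, and 4 higher and 7 lower than in M1A. FGFRL1, an FGF receptor without a kinase, was lower (−1.84 and −1.78) and SDC4 higher (1.80 and 1.53). Of 32 adaptors, 7 were higher and 12 lower than in 786-O, and 8 higher and 14 lower than in M1A, with SHC4 higher (3.45 and 3.72) and DOK7, an activator of MUSK, lower (−4.16 and −5.46). Of 28 brakes, 11 and 10 were higher and 10 and 12 lower, with SPRY4 higher (3.95 and 1.97). STYK1 was higher against each line (1.70 and 0.35), and 2 of 3 other receptor kinases were called higher against each.

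SC was compared with M1A to see what the CRISPRi vector with a non-targeting guide does. In SC, 8 receptors were lower (EGFR, MET, AXL, TYRO3, FGFR1, ROR1, ERBB2 and RYK) and 3 higher (FGFR4, FLT1 and FLT4). These were 11 of 20 tested (55%), where 53.0% of 14769 genes were called, 27.8% higher and 25.3% lower. The median log2 fold change of the 20 was −0.57, against 0.07 for all genes. SC also differed from M1A by gene length, with medians from 0.60 in the shortest class of genes to −0.44 in the longest. Taken relative to the median of each receptor's length class, the median of the 20 was −0.36. With an offset for gene length, added after seeing the data, ERBB2 was not called (edgeR adjusted p = 0.0962) and FGFR3 was called higher. On TPM with limma, 33.2% of the calls were higher instead of 52.3%, the median of all genes was −0.17, and 14 receptors were called, 3 higher and 11 lower. M1A lies in neither library set, so the vector and the library set cannot be told apart here.

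MET ranged from 77.8 to 209 TPM over the 6 SC libraries (median 85.1) and was at 498 and 534 TPM in M1A, a log2 fold change of −1.87 ± 0.31 (adjusted p = 0.00259). AXL ranged from 55.4 to 153 TPM (median 61.4) against 277 and 274 TPM (−1.49 ± 0.36, adjusted p = 0.00976). EGFR ranged from 10.5 to 56.4 TPM (median 12.2) against 125.8 and 130 TPM (−2.15 ± 0.59, adjusted p = 0.0158). In all 3 every SC library lay below both M1A libraries, and SC replicates 1 and 2 were the highest of the SC libraries. With SC replicates 1 and 2 alone, the EGFR value was −1.17, that of AXL −0.82, that of TYRO3 −0.64, that of FGFR1 −0.49 and that of ROR1 −0.41, all still called.

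ROR2 ranged from 0.08 to 2.40 TPM (median 0.165) in SC, below 4.58 and 4.28 TPM in M1A, and its log2 fold change of −2.27 ± 0.91 exceeded those of MET, AXL and EGFR but was not called (adjusted p = 0.0597). IGF1R ranged from 3.08 to 8.72 TPM, below 9.91 and 10.3 TPM, and was not called either (−0.79 ± 0.33, 0.0684). Limma, the fit of SC replicates 3 to 6 and the fits without SC replicate 1 or SC replicate 2 called both lower, the fit of SC replicates 1 and 2 called ROR2 lower, and DESeq2 called IGF1R lower. TYRO3 ranged from 7.11 to 13.9 TPM (median 7.85) in SC, below 22.8 and 22.03 TPM in M1A (−0.997 ± 0.20). FGFR1 ranged from 15.3 to 30.4 TPM (−0.91 ± 0.22), ROR1 from 8.74 to 21.1 TPM (−0.83 ± 0.23) and RYK from 33.2 to 45.8 TPM (−0.54 ± 0.09), each below both M1A libraries. ERBB2 ranged from 11.8 to 24.1 TPM (−0.61 ± 0.23, adjusted p = 0.0476), and its value was −0.19 with SC replicates 1 and 2 alone (0.0600) and −0.93 with SC replicates 3 to 6 alone. The ERBB2 call was also lost without any 1 of SC replicates 3 to 6 (0.0795 to 0.0857). FGFR4 ranged from 24.8 to 31.4 TPM in SC, above 22.3 and 19.2 TPM (0.66 ± 0.11, adjusted p = 0.00259). FLT1 ranged from 1.31 to 2.06 TPM (1.02 ± 0.23) and FLT4 from 0.68 to 1.14 TPM (1.37 ± 0.33), both above M1A. Without M1A replicate 1, and likewise without M1A replicate 2, only MET, TYRO3, RYK and FGFR4 were called, so the calls of EGFR, AXL, FGFR1, ROR1, ERBB2, FLT1 and FLT4 rest on both.

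Within SC the receptors followed the library set. Of the 21 receptors tested in the CRISPRi libraries, 19 had a higher mean TPM in SC replicates 1 and 2 than in SC replicates 3 to 6, as did 66.4% of all genes. ROR2 was at 1.92 and 2.40 TPM in set A and at 0.08 to 0.19 TPM in set B, a ratio of 16. EGFR was 4.67 times higher in set A, CSF1R 2.89 times, AXL 2.58 times, IGF1R 2.44 times and MET 2.38 times. FLT4 and NTRK3 were the exceptions, with ratios of 0.846 and 0.93.

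**Figure D3:**
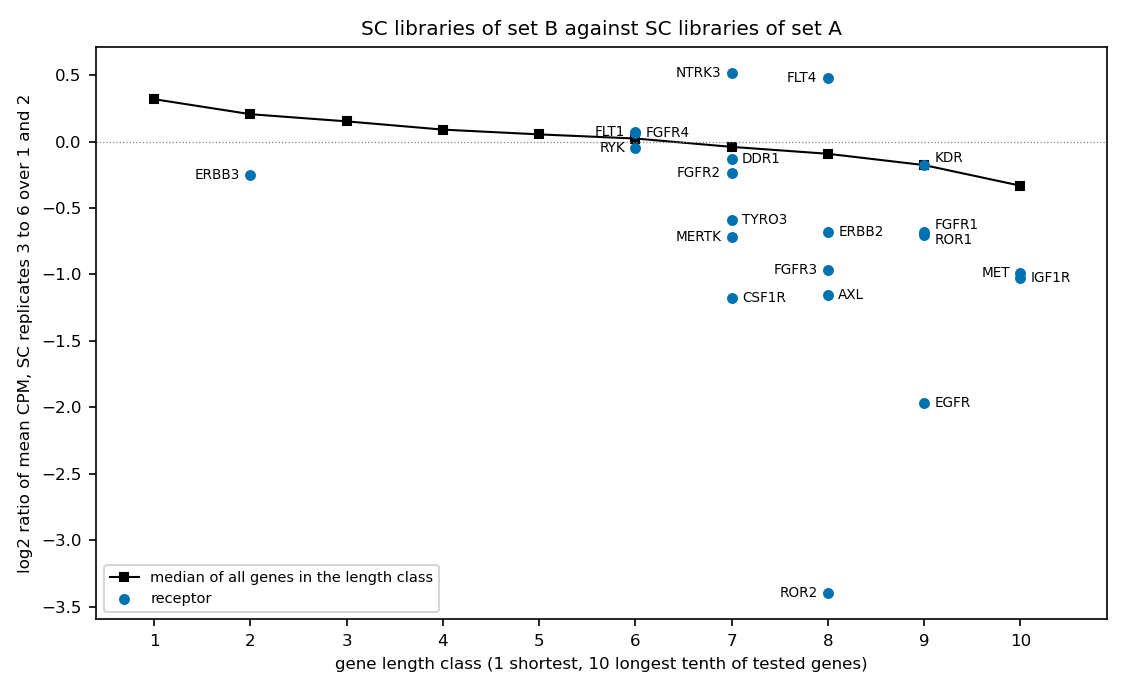
Log2 ratio of mean CPM (counts scaled to library size) of SC replicates 3 to 6 over SC replicates 1 and 2, by gene length class. The black line is the median of all tested genes in each class, from 0.32 in the shortest to −0.33 in the longest, and the blue points are the 21 receptors, of which ROR2 (−3.40) and EGFR (−1.96) lie far below their class.

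The sets were divided by the mean length of the genes read, so a trend with gene length is fixed by construction and is given as a description. The median log2 ratio of CPM in set B over set A fell from 0.32 in the shortest class of genes to −0.33 in the longest. Receptors are long, with a median length of 4135 bases among those that reached 1 TPM against 2655 bases for all such genes. Their median log2 ratio was −0.68, which is lower than that of any length class. MET and IGF1R, in the longest class, were at −0.99 and −1.02, and AXL, in the eighth class with a median of −0.09, was at −1.16. Whether library preparation or culture sets the libraries apart was not tested.

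Of 34 ligands tested in SC against M1A, 14 were higher and 6 lower, with PGF at a mean of 1.05 TPM against 15.4 TPM and NRG4, an ERBB4 ligand, at 1.52 TPM against 0.35 TPM. Of 17 co-receptors and decoys 3 were higher and 9 lower, and CD44 was at 173 TPM against 517 TPM. Of 30 adaptors 3 were higher and 14 lower, such as IRS1, the docking protein of the insulin receptors (−1.31), and PTPN11, a phosphatase that promotes RAS signalling (−0.94). Of 26 brakes 2 were higher and 16 lower, with CBL, a ubiquitin ligase of active receptors (−1.16), and LRIG1 (−1.31) among them. LMTK2 was the only one of 3 other receptor kinases called (−0.52). Of all genes tested in SC against M1A, 27.8% were called higher and 25.3% lower.

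The iMAE guides were each compared with SC, with the library set as a term of the model, so that each guide is set against SC libraries of its own set. The 3 comparisons share SC libraries, so their values are given side by side only. Few receptors were called. Under iMAE-1.1, 5 of 21 receptors and 1995 of 15254 genes had an unadjusted p under 0.05. After adjustment none of the 21 passed, and 1.79% of the genes were called, 0.911% higher and 0.878% lower. DESeq2 also called none, while limma on log2(TPM + 1) called ERBB3. Under iMAE-1.2, ERBB3 and ROR2 were higher, 2 of 21 (9.52%), where 2.73% of genes were called, 1.39% higher and 1.34% lower. Under iMAE-126, ERBB3 and FGFR4 were higher and AXL and TYRO3 lower, 4 of 21 (19%), where 16.7% of genes were called, 6.31% higher and 10.4% lower.

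**Figure D4:**
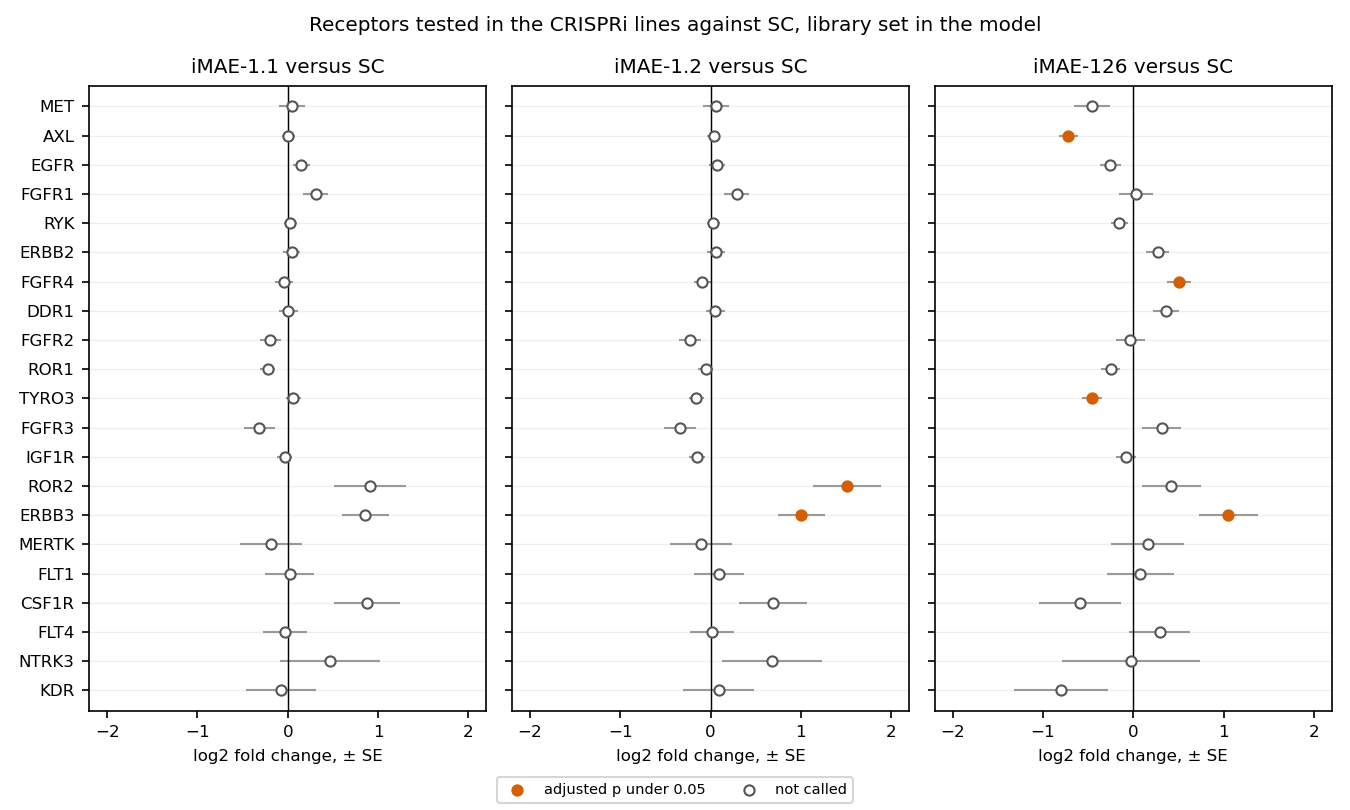
Log2 fold changes of the 21 tested receptors in each iMAE group against SC, with library set in the model, bars of 1 SE and filled points at an edgeR adjusted p under 0.05. No point is filled for iMAE-1.1, ERBB3 and ROR2 are filled for iMAE-1.2, and AXL (−0.72) and TYRO3 (−0.46) are filled to the left of 0 for iMAE-126.

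ERBB3 was at 0.89 to 1.27 TPM in SC replicates 3 to 6, at 1.84 to 2.47 TPM in iMAE-1.1 and at 1.86 to 3.03 TPM in iMAE-1.2. All libraries of each guide lay above those SC libraries. The log2 fold change was 0.86 ± 0.26 in iMAE-1.1 (adjusted p = 0.103) and 1.01 ± 0.26 in iMAE-1.2 (0.0390). In iMAE-126, ERBB3 was at 3.49 and 3.04 TPM, above 1.58 and 1.86 TPM in SC replicates 1 and 2 (1.05 ± 0.33, adjusted p = 0.0346). With 11 to 68 counts a library these ERBB3 calls are weakly held. The iMAE-1.2 call was lost without any 1 of SC replicates 3 to 6 (0.0620 to 0.124) or any 1 iMAE-1.2 library (0.0578 to 0.114), and the iMAE-126 call without SC replicate 1 (0.166), SC replicate 2 (0.0924), iMAE-126 replicate 1 (0.191) or iMAE-126 replicate 2 (0.0558).

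ROR2 was at 0.08 to 0.19 TPM in SC replicates 3 to 6 and at 0.44, 0.48, 0.40 and 0.22 TPM in iMAE-1.2. Those libraries lay above the SC libraries, with 8 to 29 counts against 2 to 8 counts (log2 fold change 1.51 ± 0.38, adjusted p = 0.0336). Without the library set in the model the ROR2 value was −0.84 (0.523), since SC replicates 1 and 2 are high. The ROR2 call was also lost without any 1 of SC replicates 3 to 6 (0.0532 to 0.1003) and without iMAE-1.2 replicate 1 (0.0680), 2 (0.0973) or 3 (0.0533). In iMAE-1.1, ROR2 ranged from 0.11 to 0.34 TPM and was not called (0.92 ± 0.40).

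AXL was at 87.9 and 92.6 TPM in iMAE-126 and at 153 and 151 TPM in SC replicates 1 and 2. The groups did not overlap, the log2 fold change was −0.72 ± 0.10 (adjusted p = 0.000268), and the call held without each of the 4 libraries in turn. Against all 6 SC libraries, without the library set in the model, AXL was at −0.06 (0.915), because SC replicates 3 to 6 lie at 55.4 to 63.3 TPM. Under iMAE-1.1 and iMAE-1.2 AXL overlapped SC, with 0.01 ± 0.07 and 0.04 ± 0.07. TYRO3 was at 10.0 and 9.13 TPM in iMAE-126, below 13.2 and 13.9 TPM (−0.46 ± 0.11, adjusted p = 0.00951), a call lost without SC replicate 2 (0.0674) or iMAE-126 replicate 2 (0.102), and at −0.10 (0.734) without the library set. FGFR4 was at 39.8 and 43.5 TPM, above 31.4 and 29.1 TPM (0.50 ± 0.13, adjusted p = 0.0157), and lost its call without SC replicate 2 (0.132), iMAE-126 replicate 1 (0.0579) or iMAE-126 replicate 2 (0.0991).

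The other abundant receptors did not pass the test under any guide with the library set in the model. EGFR was at 39.9 and 47.2 TPM in iMAE-126, below 50.9 and 56.4 TPM in SC replicates 1 and 2 (−0.25 ± 0.12, adjusted p = 0.142). MET was at 133 and 145 TPM, below 186 and 209 TPM (−0.46 ± 0.20, adjusted p = 0.131). A fit of these 4 libraries alone called 7 receptors, with EGFR and MET lower and ERBB2 and DDR1 higher, beside AXL, TYRO3 and FGFR4, and without ERBB3. Without the library set, 5 receptors were called in iMAE-126, each of them higher: ERBB2, ERBB3, FGFR3, FGFR4 and DDR1.

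MET split the libraries of the other guides in an uneven way. It was at 105, 94.7, 76.9 and 66.0 TPM in iMAE-1.1 replicates 1 to 4 and at 65.3, 69.6, 100 and 105 TPM in iMAE-1.2 replicates 1 to 4, around 77.8 to 86.2 TPM in SC replicates 3 to 6. FGFR1 was likewise at 23.5 and 24.6 TPM in iMAE-1.1 replicates 1 and 2 and at 22.1 and 23.3 TPM in iMAE-1.2 replicates 3 and 4, while the other 4 libraries of these guides lay between 15.1 and 17.5 TPM. Over all genes, the deviations from the group means were positively correlated between iMAE-1.1 replicates 1 and 2 and iMAE-1.2 replicates 3 and 4, and between iMAE-1.1 replicates 3 and 4 and iMAE-1.2 replicates 1 and 2 (r of 0.144 to 0.379 across genes, which are not replicates). The 8 remaining pairs of libraries of these guides had r of −0.346 to −0.139. Deviations cancel within a group, so positive values in some pairs force negative ones in others, and the latter are no separate result. No label names such a split, the model has no term for it, and its part in the counts of calls was not tested. Both MET and FGFR1 have wide errors here, with log2 fold changes of 0.05 ± 0.14 and 0.06 ± 0.14 for MET and 0.31 ± 0.14 and 0.29 ± 0.14 for FGFR1. None of 21 receptors was called when iMAE-1.2 was set against iMAE-1.1, and neither was any of the 15254 genes (0%), while 2 receptors, TYRO3 and ROR1, and 218 genes had an unadjusted p under 0.05. DESeq2 called 1 gene and no receptor.

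Some genes of the pathway lists were called under iMAE-1.1 and iMAE-1.2, where 1.79% and 2.73% of all genes tested were called. TGFA, an EGFR ligand, was at a mean of 70.6 TPM in iMAE-1.1 and 73.2 TPM in iMAE-1.2 against 48.2 TPM in SC replicates 3 to 6 (0.56 ± 0.06 and 0.64 ± 0.06). ERRFI1, an inhibitor of EGFR, was at 172 and 170 TPM against 132 TPM (0.40 ± 0.07 for each). In iMAE-1.1 the called genes were 1 of 34 ligands, 1 of 17 co-receptors, 1 of 30 adaptors and 2 of 26 brakes, and in iMAE-1.2 they were 3, 2, 1 and 2. In iMAE-126, 1 ligand was higher and 9 lower, with the EGFR ligands HBEGF at 5.61 TPM against 12.1 TPM (−1.07 ± 0.16), EREG at 17.2 TPM against 37.0 TPM (−1.06 ± 0.18) and AREG at 2.29 TPM against 5.23 TPM (−1.12 ± 0.28). Of 17 co-receptors there 5 were lower, such as CD44 (−0.93), of 30 adaptors 2 were higher and 5 lower, and of 26 brakes 6 were lower, such as SPRY2, a feedback inhibitor (−0.81). STYK1 was lower too (−0.63). Of all genes tested, 6.31% were called higher and 10.4% lower in iMAE-126.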

How the data were processed

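Per the file headers, the expected counts are the authors' RSEM estimates of reads per gene, and the deposited TPM values come from the same RSEM run. The tools named in the submitters' processing notes are RSEM and Bowtie2, with the build hg19 and no versions. The deposited length column is the authors' abundance-weighted transcript length, equal to the effective length in every row.

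After rounding, edgeR 4.0.16 (R 4.3.3) fitted the counts with TMM factors and its robust quasi-likelihood test. Genes passed filterByExpr with 10 as the minimum count, and p-values were adjusted over all genes tested (Benjamini-Hochberg). One fit held the unmodified lines, another SC with M1A, and the last one the 16 CRISPRi libraries with library set as a term. Library set was inferred by dividing the latter at the largest gap in count-weighted mean gene length. Mean TPM of a guide are compared with SC libraries of its own set.

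Receptors with a group mean of at least 1 TPM were described by their values. From each list of pathway genes, up to 4 called genes with the largest changes were marked, where a group mean reached 1 TPM. Some of the marked genes are not printed. The members and lists were chosen with earlier results of these data known. The results were recomputed with DESeq2 1.42.0, with RLE factors, without the filter, at a minimum count of 50, with limma 3.58.1 on log2(TPM + 1), with replicate number as a block, on the compared groups only, without library set, on subsets of SC, and without each library in turn. RefSeq promoters matched 33 of the 36 receptors. GENCODE v29 transcript lengths may differ from the annotation the authors used. For TYRO3, with 1 transcript listed, GENCODE v29 gives 8207 bases and the deposited length was 3971 bases in all 22 libraries.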

Additional observations from a re-analysis of the deposited data

Results flagged for a closer look

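In 66 pairs of a receptor and a group of 4 to 6 libraries, 3 had a library far from the others by Dixon's ratio, where chance at 1 in 20 gives 3.3. DDR1 was at 17.1 TPM in iMAE-1.1 replicate 4, above 15.5 to 15.6 TPM in the other 3 libraries of that guide. FLT4 was at 1.29 TPM in iMAE-1.2 replicate 1, above 0.73 to 0.82 TPM. INSR was at 0.02 TPM in SC replicate 1 and at 0 in the other 5 SC libraries, a level of a few reads.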

How the results depend on the processing

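Of the receptors called, counts moved by more than 1.5 times in these cases. In SC versus M1A, leaving out 1 library gave 4 to 14 receptors. Under iMAE-1.1, limma on log2(TPM + 1) called 1. Under iMAE-1.2 the count of 2 became 1 with no filter, with a minimum count of 50 and with limma, 0 with no library set and with the compared groups alone, and 0 to 2 without 1 library. Under iMAE-126 it was 7 with the compared groups alone and 1 to 4 without 1 library. ROR2 in iMAE-1.2 reversed to −0.84 with no library set. With the replicate block, 0 receptors were called under iMAE-1.2 and 3 under iMAE-126, and the other comparisons of receptors stayed within 1.5 times. Same-numbered libraries did not deviate together (correlations of −0.337 to 0.066). In a group of 2 libraries the deviations mirror each other, so for such groups this check cannot decide whether same-numbered libraries share more than a number. Between iMAE-1.1 and iMAE-1.2, with 4 libraries each, same-numbered pairs had correlations of −0.337 to −0.207. The block by number does not match the split of these libraries given above, and the part of that in the counts of calls was not tested. The block of SC with M1A uses only SC replicates 1 and 2.

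The number of all genes called was 8733 for M1A versus 786-O with these groups alone and 2259 to 2551 without 1 library, and 1999 to 9085 for SC versus M1A without 1 library. Under iMAE-1.1 and iMAE-1.2 it was 69 and 110 with no library set, 6 and 10 with the replicate block, 481 and 655 with DESeq2, and 135 to 271 and 201 to 441 without 1 library, lowest without SC replicate 3 and SC replicate 6. Under iMAE-126 it was 1388 with the block and as low as 728 without SC replicate 2. With limma 34.6% of the iMAE-1.2 calls were higher, against 50.8%, and the median of all genes in OS-LM1 versus 786-O was −0.13, against −0.02. The pseudocount of 1 shrinks the changes of low receptors by construction. Low counts limit ERBB3, ROR2, PTK7 and the 14 receptors under 1 TPM.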
